A study of Rattus norvegicus with 86 samples.

Results

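The genes described here are those of the cytosolic ribosome and of the factors that start and extend protein synthesis on it. They were taken by name: every gene of the prelimbic cortex (PL) expression table whose Ensembl identifier the study's supplementary lists pair with a name starting with Rpl, Rps (the kinase family Rps6k left out), Eif or Eef. This gave 23 of the 17250 genes, with 3 proteins of the small subunit, 11 of the large subunit, 7 initiation factor genes and 2 genes with names in Eef. The lists hold genes with local expression quantitative trait loci in 1 or more brain regions. Names were paired with 19.1% of the identifiers in the table. The set is therefore a selection of ribosome genes with reported genetic effects on expression, not the whole ribosome.

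The animals were Heterogeneous Stock (HS) rats, an outbred population descended from inbred founder strains, and all were naïve to behavioural or drug treatment and group housed. One polyA RNA library per rat was sequenced from bilateral PL tissue, and 80 rats were kept (40 female and 40 male), while 6 samples that the labels mark as removed were not used. The labels also give a rat batch, numbered 2 to 6, with 14, 23, 26, 1 and 16 rats. Batch 2 held 3 females and 11 males, batch 3 held 13 and 10, batch 4 held 15 and 11, batch 6 held 8 and 8, and the rat of batch 5 was female. No age was given in the labels, and the labels do not say what defines a rat batch. Values are log2 of the upper-quartile adjusted count plus 1, and a level below means this quantity. Levels are not divided by gene length, so they were compared between rats and not between genes. Recovered depth was 10174405 to 32218170 reads per library.

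The small subunit of the ribosome reads the messenger RNA and the large subunit joins the amino acids. Initiation factors bring the capped messenger, the first transfer RNA and both subunits together, and elongation factors then carry the transfer RNAs in. Many ribosomal protein messengers start with an unbroken stretch of pyrimidines (C or T in DNA letters), a feature through which mTOR signalling is known to control their translation.

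Start regions of some members are printed first, to show runs of C and T near the annotated start. RefSeq promoters (build GRCr8) were matched by symbol and chromosome for 17 of the 22 member names. For *Rpl9* and *Rpl38* the RefSeq entry lay on another chromosome than the study's list gives, so which gene these identifiers measure is uncertain. Each line gives 30 bases, 15 before and 15 after the annotated start, on the transcribed strand, with the longest run of C and T in capitals where it reached 8 bases. The first 4 are ribosomal proteins with such a run and *Eif3i* is an initiation factor with one. *Rpl24*, *Rps16*, *Eif4e* and *Eif5* have none at the annotated start used and the cut of 8 bases, and other starts were not searched. All genes shown, with or without a run, return in the batch comparison.
Rps23, chr2:23814502-23814531, plus strand: tgggtccttcctgCCTCTCTTCTCTCTTTC
Rpl28, chr1:78083518-78083547, minus strand: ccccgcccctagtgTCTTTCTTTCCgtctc
Rps9, chr1:74430423-74430452, minus strand: tccggcggccacgTTTCTCTTTgtcacggg
Rpl7a, chr3:30637121-30637150, plus strand: CTCTCCTCCagccgagcaagatggtgagtg
Eif3i, chr5:147226896-147226925, minus strand: cagTCTTCTTCCggtcctactcacattgcc
Rpl24, chr11:58128391-58128420, minus strand: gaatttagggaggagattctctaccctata
Rps16, chr1:92770643-92770672, plus strand: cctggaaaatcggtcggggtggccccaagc
Eif4e, chr2:229740738-229740767, plus strand: agcggttgtgcgatcagatcgatctaagat
Eif5, chr6:136410318-136410347, plus strand: cccggggccgagggtagcttgagcgcggcg

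A run of 8 or more pyrimidines lay within 15 bases of the start in 4 of the 9 matched ribosomal proteins and in 2 of the 8 matched factors. The same was found in 11.4% of all 33469 RefSeq promoters. Runs on either side of the start were counted, so a run need not be part of the messenger. In *Rpl7a*, *Eif3i* and *Eef1akmt2* it lay wholly before the annotated start. The longest run, in *Rps23*, was 17 bases. Over the full 300 bases (250 before and 50 after the start, both strands), the ETS family motif CCGGAAG was in 4 of the 17 matched promoters and in 8.75% of all promoters, and the TATA box letters TATAAA were in 1 of 17, that of *Eif4a2*, and in 14.2% of all. These matches are descriptions of the letters in these windows, and the letters of neighbouring motifs were not searched.

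Nearly all members were well expressed. In 22 of the 23 genes every rat had a value above 0, and the same 22 had a mean level of at least 5. In 19 of the 22 genes with values of their own, the highest rat was 1.47 to 2.90 times the lowest, on the scale of the adjusted count plus 1. The residual SD after sex and batch ran from 0.12 to 0.27 log2 units in these genes. Among all 17250 genes, 16 of the 22 had a residual SD under the 50th percentile. This ranking was not matched for level. In mean level the 19 genes lay between the 41.9th (*Eef1akmt2*) and the 99.2th percentile (*Eif4a2*), and the part of level in their low SD was not tested. *Eif4a2*, which encodes an RNA helicase of the cap-binding complex, was among the steadiest, at 13.73 ± 0.12 (mean ± SD, n = 80 rats, 12.3th percentile of residual SD). The exceptions were *Rpl38*, *Rpl12* and *Rpl30*, which are described at the end.

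Some members share values with other identifiers, or a name with pseudogenes. The 2 identifiers named *Rpl7a*, ENSRNOG00000047737 and ENSRNOG00000049097, held the same values in every rat, so they count as 1 measurement, and the 23 genes gave 22 measurements. *Rplp2* had the same values as 1 other identifier and *Rpl38* the same as 3 others. RefSeq lists many pseudogenes under ribosomal protein names: 27 under *Rpl9*, 20 under *Rpl7a*, 16 under *Rps9* and 12 under *Rpl12*. *Rpl24* has 7 and *Rplp2* 2. Among the factors RefSeq lists 11 under *Eif5*, 10 under *Eif4e* and 4 under *Eif3i*, against 0 under *Eif3j*, *Eif5a2* and *Eefsec*. Their sequences were not compared. Where they are alike, reads could be divided between gene and pseudogenes when counted, so levels of such genes are less certain.

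Sex was compared first, with rat batch in the model. No member differed between males and females. Of all genes 63 passed an adjusted p of 0.05 (limma, Benjamini-Hochberg), or 0.365%, and 0 of the 23 members did. At an unadjusted p under 0.05 there were also 0 members, against 1349 of all genes, or 7.82%. The closest was *Rps9*, a protein of the small subunit. Its lowest, median and highest levels were 11.16, 11.66 and 12.20 in the 40 females and 11.14, 11.61 and 11.86 in the 40 males. The ranges overlapped almost entirely, and the male minus female difference was -0.08 log2 (SE 0.04, limma adjusted p = 0.657). Taken within batches 2, 3, 4 and 6 in turn, the *Rps9* difference was -0.13, -0.12, -0.11 and 0.03.

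*Eif4e*, the protein that binds the messenger's cap, had a lowest, median and highest level of 10.76, 11.11 and 11.39 in females and of 10.79, 11.11 and 11.47 in males, a difference of 0.04 (SE 0.03). *Eif5*, the factor that triggers GTP hydrolysis on the initiation complex, had 12.05, 12.47 and 12.69 in females and 12.15, 12.43 and 12.79 in males, a difference of 0.03 (SE 0.03). Their limma adjusted p-values were 0.818 and 0.871. The sexes overlapped in both genes. Apart from *Rpl12*, *Rpl30* and *Rpl38*, the differences lay between -0.08 and 0.04 log2 in 19 genes, with standard errors of 0.03 to 0.06. The interaction of sex and batch was called in 0 members, where 0% of all genes were called (limma). At an unadjusted interaction p under 0.05 there were 0 members and 410 genes in all.

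Rat batch was the larger source of difference. The moderated F-test over batches, with sex in the model, called 19 of the 23 members, while it called 59.4% of all genes. The 4 members not called were *Eef1akmt2*, *Eif4a2*, *Eif4e3* and *Rpl30*. Sex and batch together accounted for between 1.86% (*Rpl30*) and 51.1% (*Rpl24*) of the variance of a member. The batches fell into pairs. Batch 3 against 2 gave 2 called members (*Rpl11* higher and *Eif3j* lower in batch 3) where 5.7% of all genes were called, batch 6 against 4 gave 0 where 6.23% were called (5 members at an unadjusted p under 0.05), and batch 4 against 3 gave 18 where 51.7% were called. The mean of batches 4 and 6 was therefore set against the mean of batches 2 and 3. These sides were chosen with results of the same data known, so the p-values of this contrast are not an independent test of the split.

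Most ribosomal protein genes were lower in batches 4 and 6, while the members that were higher lay outside the ribosomal proteins. In this contrast 14 of the 23 members were lower, where 26.6% of all genes were (limma, adjusted p under 0.05). Another 4, or 17.4%, were higher, where 28.8% of all genes were. Of the 7 initiation factors 3 were higher and 1 was lower. Counting *Rpl7a* once, 11 of the 13 ribosomal proteins were lower and 0 were higher, also at an unadjusted p under 0.05. The 11 include *Rpl9* and *Rpl38*, for which the chromosomes in RefSeq and in the study's list differ. The median difference of the 14 ribosomal identifiers was -0.22 log2, that of the 7 initiation factors was 0.04, and that of all genes was 0.01. Apart from *Rpl12* and *Rpl38*, the 9 ribosomal proteins that were lower were at 0.790 to 0.892 times their level in batches 2 and 3. When the libraries were scaled to equal totals instead, 13 members were lower and 5 higher, while the share of all called genes that were lower went from 48.0% to 33.6%.

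**Figure D1:**
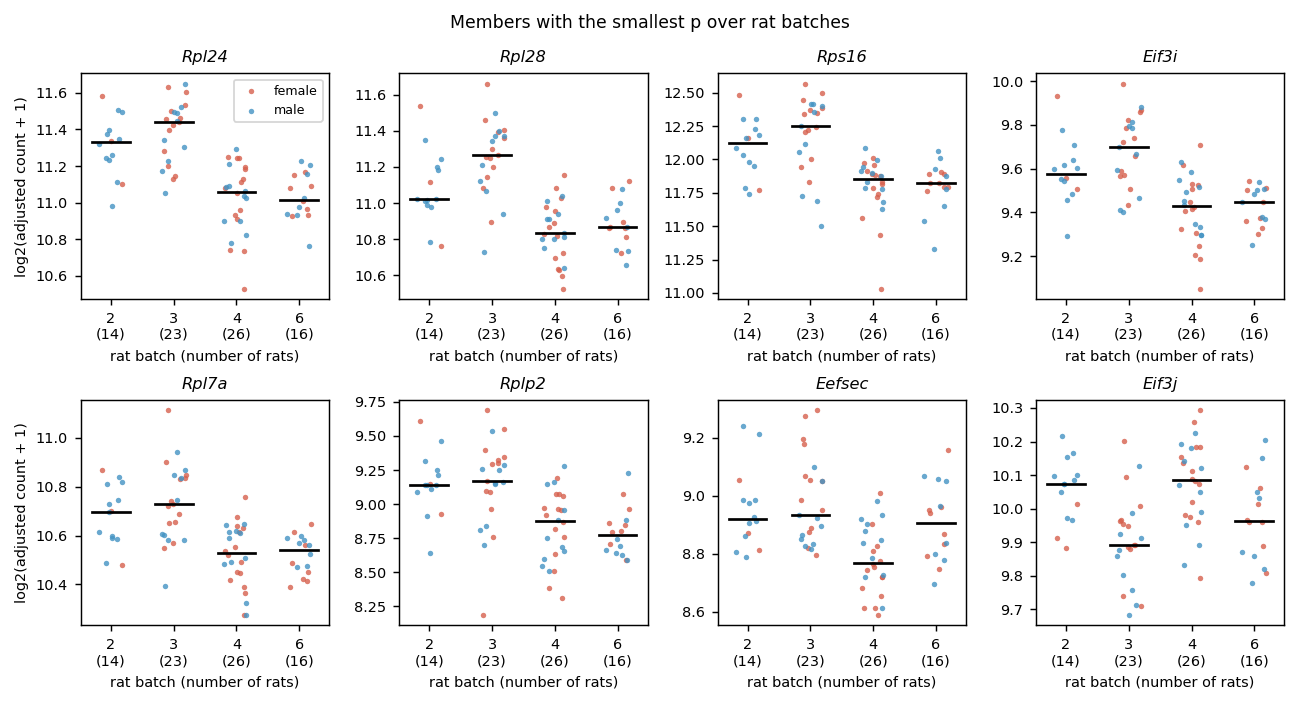
Levels, as log2 of the adjusted count plus 1, of the members with the smallest p over batches (*Rpl7a* shown once, *Rpl38* left to a later plot), by rat batch. Each point is a rat (red female, blue male) and each bar the median of a batch. In *Rpl24* the medians are 11.33 and 11.44 in batches 2 and 3 and 11.06 and 11.02 in batches 4 and 6, with overlapping points.

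Among the small subunit proteins, *Rps16*, whose tail reaches towards the decoding site, changed most. Its lowest, median and highest levels were 11.50, 12.20 and 12.57 in the 37 rats of batches 2 and 3 and 11.03, 11.83 and 12.09 in the 42 rats of batches 4 and 6. All 42 were below the median of the 37, although the ranges overlapped. The difference was -0.34 log2 (SE 0.05, limma adjusted p = 7.31e-08). *Rps9* was lower by -0.19 log2 (SE 0.04) and *Rps23*, a protein of the decoding centre, by -0.17 (SE 0.05), with limma adjusted p-values of 0.000147 and 0.00359. *Rps9* did not pass between batches 6 and 2 alone, and *Rps23* neither there nor in females only. In *Rps23* the highest rats were in batch 3, whose median was 12.06, and batch 2 at 11.73 was close to batches 4 and 6 at 11.74 and 11.66.

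Among the large subunit proteins, *Rpl24*, which forms a bridge between the subunits, had the smallest p of all members. Its lowest, median and highest levels were 10.98, 11.37 and 11.65 in batches 2 and 3 and 10.53, 11.04 and 11.29 in batches 4 and 6. The difference was -0.32 log2 (SE 0.04, limma adjusted p = 5.22e-11), or 1.25 times higher in batches 2 and 3. *Rpl28*, a protein that bacterial ribosomes lack, followed with 10.73, 11.20 and 11.66 against 10.53, 10.87 and 11.16. In both genes all 42 rats of batches 4 and 6 were below the median of the other 37. The *Rpl28* difference was -0.31 log2 (SE 0.04, limma adjusted p = 1.6e-09).

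*Rpl7a*, with its 2 identical identifiers, had 10.39, 10.72 and 11.12 against 10.27, 10.53 and 10.76. That is -0.19 log2 (SE 0.03, limma adjusted p = 2.77e-07), with 41 of 42 rats below the median of the other side. *Rplp2*, an acidic protein of the stalk that receives the elongation factors, had 8.18, 9.15 and 9.69 against 8.31, 8.81 and 9.28, a difference of -0.34 log2 (SE 0.06, limma adjusted p = 1.86e-06). *Rpl9* was lower by -0.16 log2 (SE 0.05, limma adjusted p = 0.00182), but did not pass in females only or between batches 6 and 2. *Rpl11*, which binds 5S ribosomal RNA and can also bind Mdm2, did not pass in this contrast at -0.04 (SE 0.05), and its medians in batches 2, 3, 4 and 6 were 11.14, 11.41, 11.21 and 11.21.

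The initiation factors did not move as 1 group. *Eif3i*, a subunit of the eIF3 scaffold, went with the ribosomal proteins. Its lowest, median and highest levels were 9.29, 9.61 and 9.99 in batches 2 and 3 and 9.05, 9.44 and 9.71 in batches 4 and 6, and 39 of the 42 rats were below the median of the others. The difference was -0.21 log2 (SE 0.03, limma adjusted p = 2e-07). *Eif3j*, a loosely bound subunit of the same complex, did not pass in this contrast (0.04, SE 0.03), although its F-test over batches did and it passed with equal library totals (0.10, adjusted p = 0.00366).

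*Eif4e* rose by 0.13 log2 (SE 0.03, limma adjusted p = 0.000675), with medians of 11.05 and 10.98 in batches 2 and 3 and of 11.20 and 11.12 in batches 4 and 6. *Eif5* rose by 0.11 (SE 0.03, limma adjusted p = 0.00393) and *Eif5a2*, a paralogue of the hypusine-bearing factor Eif5a, by 0.10 (SE 0.04, limma adjusted p = 0.0183). With *Eef1akmt2*, these increases were 7.19% to 10.8%, and in each gene the batches overlapped. They depended on which rats were used: 0 of the 4 passed in males only (2 at an unadjusted p under 0.05) and 0 between batch 6 and batch 2 (1 at an unadjusted p under 0.05), where *Eif5a2* was at -0.0094, and 2 passed in females only. *Eif4a2* was at -0.06 (SE 0.03) and *Eif4e3*, a divergent cap-binding relative of Eif4e, at -0.05 (SE 0.04), and neither passed, although *Eif4a2* did with libraries centred on their median (-0.07, adjusted p = 0.0264).

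Both genes with names in Eef were small in their changes and opposite in sign. *Eefsec*, the elongation factor that delivers selenocysteine, was lower by -0.12 log2 (SE 0.03, limma adjusted p = 0.000855), mainly in batch 4, whose median was 8.77 against 8.90 in batch 6. It did not pass with equal library totals (-0.07, adjusted p = 0.0626) or in males only. *Eef1akmt2*, an enzyme that methylates a lysine of eEF1A, was higher by 0.15 log2 (SE 0.05, limma adjusted p = 0.00909). *Eef1akmt2* did not pass in males only, in females only, between batches 4 and 3 or between batches 6 and 2, nor in the F-test over batches. Its highest rats, up to 7.88, were in batches 4 and 6, while batches 2 and 3 reached 7.56.

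**Figure D2:**
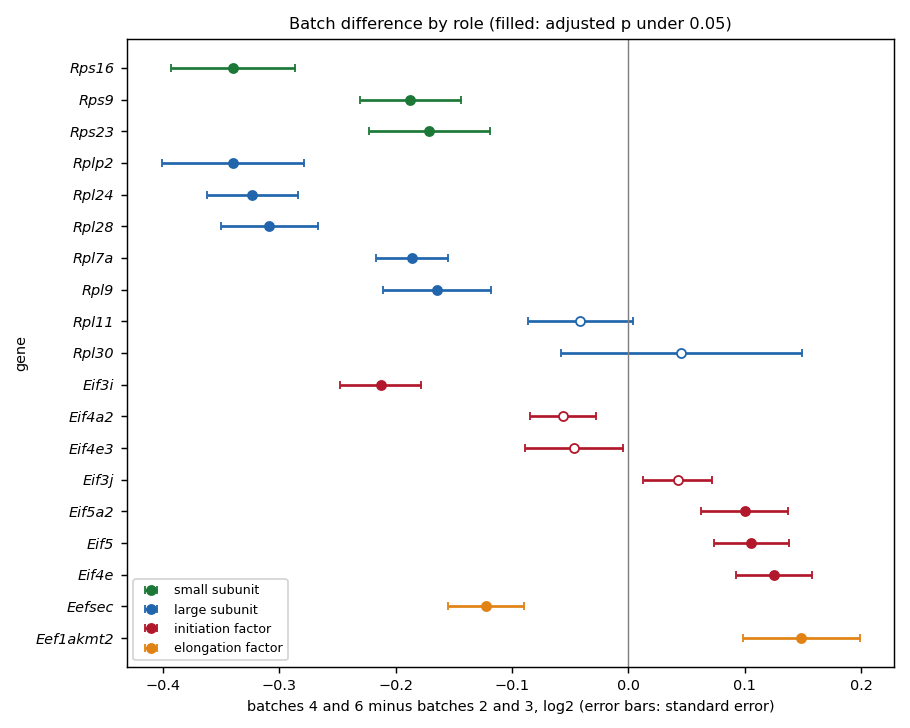
Difference in log2 level between batches 4 and 6 and batches 2 and 3 for 19 member genes by role, with standard errors; filled points passed an adjusted p of 0.05 in limma. *Rpl12* and *Rpl38*, at -1.38 and -2.48, are left out for scale. The ribosomal proteins other than *Rpl11* and *Rpl30* lie between -0.34 and -0.16, and *Eif4e*, *Eif5*, *Eif5a2* and *Eef1akmt2* lie between 0.10 and 0.15.

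Another ribosomal component moved with the same batches. The 5.8S ribosomal RNA, part of the large subunit and not polyadenylated, had median levels of 9.53 and 9.27 in batches 2 and 3 and of 2.00 and 3.09 in batches 4 and 6. Batch 3 ran from 1.585 to 13.04 and so overlapped batches 4 and 6, which reached 4.81 and 4.86. The lowest rat of batch 2 was at 8.06. The tests that follow are of 5.8S ribosomal RNA. The batch difference of this RNA was -6.59 log2 (SE 0.44, limma adjusted p = 2.27e-21). Within batches and sexes, the residual correlation of 5.8S ribosomal RNA with the 22 measurements ran from -0.55 for *Eif4e* to 0.45 for *Eif3i*, with a median of 0.15 (Pearson's r over 80 rats; Spearman's rho from -0.44 to 0.47). Of the 28 cell type markers listed, 10 could be matched by name, so the tissue label could be checked against few of them: *Vip*, of an interneuron class, was at 10.16 ± 0.18 (SD, n = 80). Between the batches *Olig2* of the oligodendrocyte lineage was lower by -0.31 log2 (SE 0.07), the microglial genes *C1qa* and *C1qc* by -0.19 (SE 0.05) and -0.17 (SE 0.06), while *P2ry12*, also microglial, was higher by 0.27 (SE 0.06) and *Dcn* of the meninges by 0.26 (SE 0.08). The other matched markers did not pass. These were *Vip* (-0.0073, SE 0.04), *Aldh1l1* of astrocytes (-0.08, SE 0.05), *Vtn* of vessels (-0.04, SE 0.06) and the blood genes *Hbb* (-0.34, SE 0.17) and *Hbb-bs* (-0.18, SE 0.14). The median recovered depth was 17642426, 17817810, 19247770 and 17880118 reads in batches 2, 3, 4 and 6, and with depth as a covariate 15 members were lower and 3 higher. The part of ribosomal RNA and of cell makeup in the members' differences was not tested, and in tissue, fewer cells of a type and less RNA per cell cannot be told apart.

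The neighbouring groups of genes were counted in the same contrast. Of the mitochondrial ribosome, whose proteins are also made on cytosolic ribosomes, 16 genes were named and 11 of them were lower and 0 higher, with a median of -0.15 log2. The 3 largest differences there were those of *Mrpl17* (-0.30, SE 0.03), *Mrpl35* (-0.28, SE 0.03) and *Mrpl20* (-0.27, SE 0.04). Of 12 named ribosome biogenesis genes 6 were lower and 2 higher, with a median of -0.07. *Fbll1*, a relative of the nucleolar methyltransferase fibrillarin, was lower by -0.52 (SE 0.04, limma adjusted p = 1.35e-19), *Nop9* by -0.26 (SE 0.04) and *Tsr3* by -0.23 (SE 0.04).

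Of 14 other translation genes 4 were lower and 2 higher, with a median of -0.02. The largest were the transfer RNA synthetases *Hars1* (-0.18, SE 0.02) and *Gars* (-0.17, SE 0.02) and *Mknk2* (-0.16, SE 0.03), a kinase of eIF4E. Of a list drawn up for mTOR signalling 4 genes were named, and 2 were lower and 2 higher. The mTOR inhibitor *Deptor* was at 0.31 (SE 0.08) and *Rragc*, a GTPase that brings mTOR to the lysosome, at -0.12 (SE 0.02). The list also took kinases with names in Rps6ka, which are not parts of the mTOR complexes, and of these *Rps6ka4* was at -0.15 (SE 0.04). The median over all genes, 0.01, stands beside these.

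The members also varied together among rats of the same batch and sex. All correlations that follow are Pearson's r of residuals on sex and batch over 80 rats, given as descriptions, and the points are libraries that also differ in depth and in 5.8S ribosomal RNA. The 78 pairs of ribosomal proteins had a median r of 0.47, and 73 were above 0. The 21 pairs of initiation factors had a median of 0.24, the 91 pairs across the classes had 0.04, and all pairs of genes with a mean level of at least 5 had -0.0028. With Spearman's rho the same medians among members were 0.45, 0.26 and 0.07.

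Leaving out *Rpl12*, *Rpl30* and *Rpl38*, a choice made after the values were seen, the 9 other ribosomal proteins reported here had r of 0.38 to 0.85 in all 36 pairs. *Rpl7a* with *Rpl28* reached 0.83. *Rpl24* with *Rpl9* (0.85) was the highest of these, within the large subunit. Across the subunits *Rps23* was at 0.81 with *Rpl24* and 0.80 with *Rplp2*. A set of 5 initiation factors, *Eif3j*, *Eif4a2*, *Eif4e*, *Eif5* and *Eif5a2*, was also picked after the values were seen, without *Eif3i* and *Eif4e3*. These had r of 0.49 to 0.86 with each other, the highest between *Eif4e* and *Eif5*. With the same 5, *Eif4e3* had r from -0.06 (*Eif4e*) to 0.24 (*Eif3j*).

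*Eif3i* stood with the ribosomal proteins here as it did between batches. Its r was 0.34 to 0.80 with those 9 and -0.41 to -0.02 with the 5 initiation factors. The lowest value among all members was that of *Rpl28* with *Eif5a2* (-0.50). *Eif4a2* was at 0.81 with *Eif4e*, and among the ribosomal proteins it ranged from 0.62 with *Rpl9* and 0.54 with *Rpl24* to 0.04 with *Rps16* and -0.07 with *Rpl28*.

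**Figure D3:**
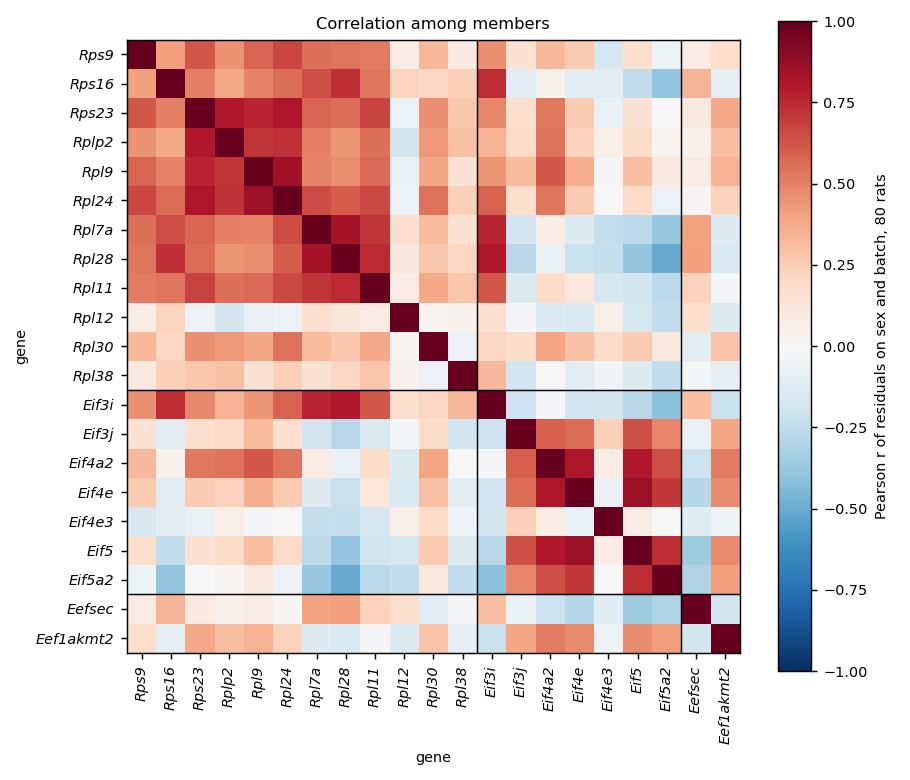
Pearson's r between members over 80 rats after sex and rat batch were removed, from -1 (blue) to 1 (red), with black lines between ribosomal proteins, initiation factors and the genes with names in Eef. Ribosomal proteins other than *Rpl12*, *Rpl30* and *Rpl38* form a red block (0.38 to 0.85) that *Eif3i* shares, and 5 initiation factors form another (0.49 to 0.86). Both blocks were picked after the values were seen, and *Eif4e3* lies outside them.

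The 3 remaining ribosomal proteins of the large subunit differed from the others in their spread. The identifier named *Rpl38* was listed at 0 in 55 of 80 rats and reached 5.64 in the others, which is an adjusted count of 49. RefSeq places *Rpl38*, known in mouse embryos for its role in translating homeobox messengers, on another chromosome than the study's list. Whether this identifier is that gene was not tested. The rats above 0 were 8 of 14 in batch 2, 13 of 23 in batch 3 and 2 in each of batches 4 and 6, out of 26 and 16. Its median was 3.99 and 4.39 in batches 2 and 3 and 0 in batches 4 and 6. The difference was -2.48 on this log2 scale (SE 0.41, limma adjusted p = 3.21e-07), and no fold is given because of the zeros. It was the only member for which a mixture of 2 normal distributions gave separate levels among rats, where 2.45% of all genes had them. The means lay 4.64 log2 apart, with 26.7% of rats in the smaller group.

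*Rpl12*, a protein at the base of the stalk, had lowest, median and highest levels of 6.71, 8.48 and 10.49 in batches 2 and 3 and of 5.86, 6.83 and 10.16 in batches 4 and 6. The highest rat was 24.8 times the lowest, and the residual SD of 1.33 was at the 97.8th percentile of all genes. The widest gap between neighbouring rats, from 9.12 to 9.63, left 24 rats above it, namely 3, 8, 11 and 2 rats of batches 2, 3, 4 and 6. High rats were thus found in every batch but the single rat of batch 5, and the mixture did not call 2 levels. The batch difference was -1.38 (SE 0.30, limma adjusted p = 6.7e-05), and it did not pass between batches 4 and 3 alone (-0.82, adjusted p = 0.0561).

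*Rpl12* followed none of the other members, with r between -0.25 and 0.22 in its 21 pairs. It ran opposite to 1 unnamed gene, ENSRNOG00000028993, which was chosen after its values were seen because its residual r with *Rpl12*, -0.85, was the lowest of all genes, the next lowest being -0.44. That gene was at 10.15 ± 0.56 (SD, n = 80) and did not differ between the batches past the threshold (0.09, SE 0.13). The log2 of the summed adjusted counts of both genes was 10.71 ± 0.20, with a residual SD of 0.18 against 1.33 for *Rpl12* and 0.55 for the other gene. In batches 2, 3, 4 and 6 the mean of this sum was 10.72, 10.85, 10.62 and 10.63. The means of *Rpl12* alone were 8.85, 8.86, 8.05 and 6.98, so its batch difference was much smaller in the sum, which was not tested between batches. *Rpl12* made up between 3.54% and 72.0% of that sum, with a median of 17.7%. Whether reads of 1 messenger were divided between both identifiers was not tested.

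**Figure D4:**
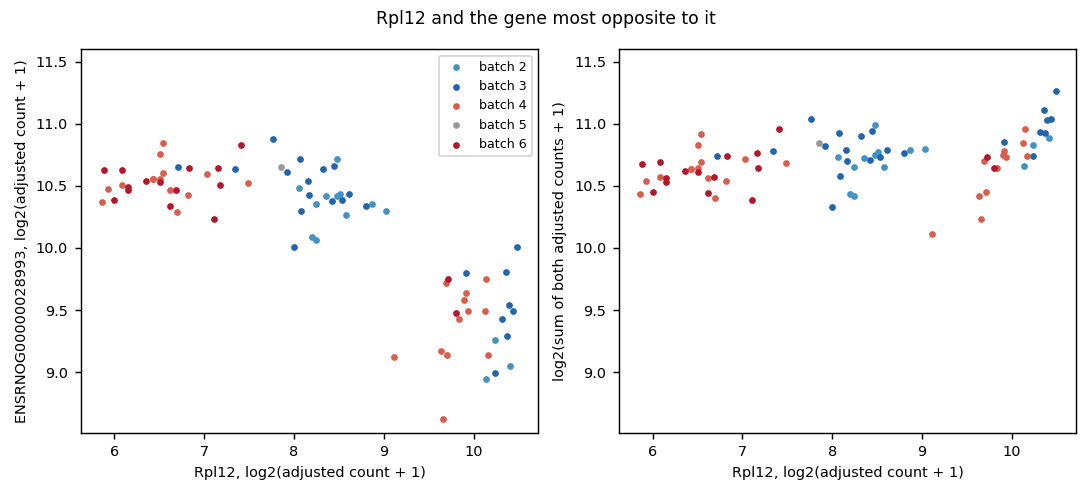
*Rpl12* (horizontal axis, log2 of the adjusted count plus 1) against ENSRNOG00000028993 (left) and against the log2 of the sum of both adjusted counts (right), 1 point a rat, coloured by batch. Rats high in *Rpl12* are low in the other gene, and the sum keeps to 10.12 to 11.27 while *Rpl12* runs from 5.86 to 10.49.

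*Rpl30* owed part of its spread to 1 rat. That rat, of batch 3, was at 7.49 while the next lowest was at 9.64, and the other 79 were at 10.50 ± 0.29 (SD). The residual SD of *Rpl30* was 0.46 with the rat and 0.30 without it, at the 73.7th and 61.3th percentile of all genes. Even without the rat it was above the highest of the 19 genes with narrower ranges, 0.27. The same rat was in the upper part of the range for *Rpl9* (12.49) and *Rps16* (12.34) and was second lowest for *Eif5* (12.13) and *Eif4e3* (7.45). *Rpl30* did not differ between batches 4 and 6 and batches 2 and 3, at 0.05 (SE 0.10) with the rat and -0.03 without it.

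**Figure D5:**
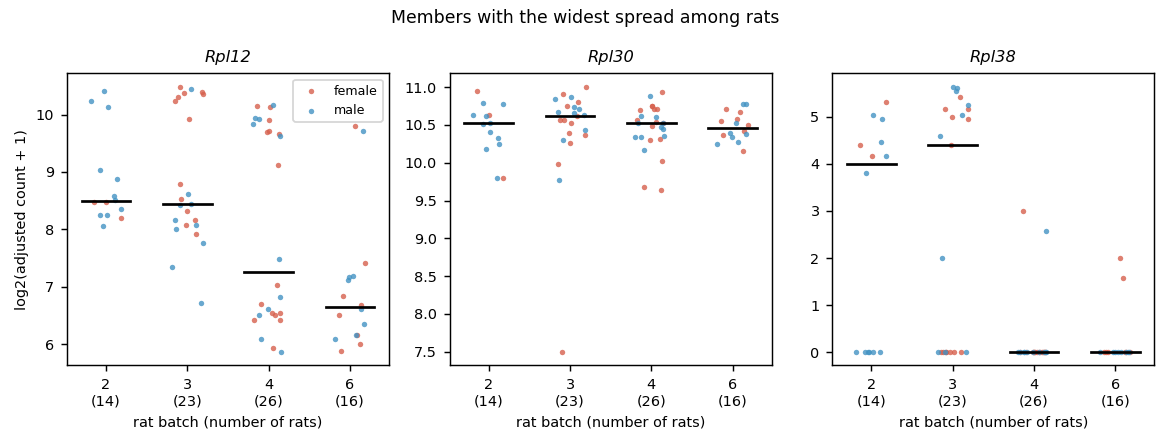
Levels, as log2 of the adjusted count plus 1, of *Rpl12*, *Rpl30* and *Rpl38* by rat batch, 1 point a rat (red female, blue male), with bars at batch medians. *Rpl12* has 24 rats above 9.6, *Rpl30* has 1 rat at 7.49, and *Rpl38* is at 0 in 55 rats, most of them in batches 4 and 6.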

How the data were processed

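The authors trimmed reads with cutadapt, estimated gene counts with RSEM against the Ensembl rat transcriptome (Rnor_6.0 in the submitters' processing notes), applied an upper-quartile adjustment in DESeq2, and filtered samples and genes. They deposited log2 values of the adjusted counts with a pseudocount of 1. These are not raw counts, so no count test was run. Depth was recovered from the whole numbers each library's adjusted counts skipped, clearly in 79 of 80 libraries. Sexes and batches were compared with limma 3.58.1 in R 4.3.3 (variance trend) over all 17250 genes, and fits were tested on simulated data. Separate levels were sought with a mixture of 2 normal distributions. Other steps used Python 3.11.15. All members but 1, which is not reported here, are named; the 8 with the smallest p over batches, the 4 with the largest residual SD, the 3 with the smallest p for sex, members sharing a name and those with 2 levels are given in full, and 3 genes of each other list. Members and lists were chosen with earlier results of these data known. Genotypes were not analysed here, and the naming lists were held only in part.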

Additional observations from a re-analysis of the deposited data

How the results depend on the processing

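The count of members differing by sex (0) and by batch (14 to 20) kept within 1.5 times its value under every alternative tried, which were other scalings, pseudocount, filter, transformation, depth covariate and left-out batches. The 14 members lower in batches 4 and 6 numbered 11 to 15. The 4 higher members were the exception: 0 passed in males only, 2 in females only and 0 in batch 6 minus batch 2, where *Eif5a2* turned to -0.0094. For single members, 241 of 277 repeats kept direction and call, 20 lost and 6 gained the call, and 10 turned in sign, *Eif5a2* among them. In the other turned ones the member was not called either way. These were, with equal library totals, *Eif4a2* (0.00075), *Eif4e3* (0.0099) and *Rpl11* (0.016), in batch 4 minus batch 3, *Eif4a2* (0.019) and *Eif4e3* (0.0087), and in batch 6 minus batch 2, *Eif3j* (-0.086) and *Rpl11* (0.075). *Rpl30* turned with rank-based transformation (-0.17, in SD units) and in males only (-0.026). Leaving out the rat lowest in *Rpl30*, chosen after seeing the data, changed no count of members and turned *Rpl30* to -0.032. The cause of these changes was not tested, beyond fewer rats in the subsets. No paired analysis was possible because each rat gave 1 library and the labels carry no shared replicate numbers. *Rpl38* rests on few reads, so its zeros are not absence.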
